A study of Amphiura filiformis with 28 samples.

Results

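The 4 genes described here are *Pur9* (AFI30136), *Lsm7* (AFI31246), *Atp5h* (AFI30304) and *Spcs3* (AFI30360) of the brittle star *Amphiura filiformis*. They are 4 of 30090 genes in the explant expression table and of 28263 genes in the arm regeneration table. They were selected on values of the arm regeneration series. Each was the candidate closest to the mean profile of the chromosome 1 genes in its expression cluster. Candidates were the named genes among them that reached a level of at least 10, and numbered 33 for *Pur9*, 13 for *Lsm7*, 24 for *Atp5h* and 4 for *Spcs3*. The Pearson correlation with that mean over the 8 samples was 0.985 for *Pur9* (cluster A6), 0.954 for *Lsm7* (A7), 0.989 for *Atp5h* (A5) and 0.822 for *Spcs3* (A9). The next gene in each cluster stood at 0.979 (*Smo2a-2*), 0.951 (*H331*), 0.976 (*Ech1-1*) and 0.819 (*Tyy1*). Their levels in the arm regeneration series are therefore a description, with no test, whereas the rule used no explant value. The genes and tests were nevertheless chosen with earlier results of these data known.

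The animals were wild type and untreated. In the explant experiment, arms were cut from the body and cut again at the distal end, and distal (regenerating), medial (control) and proximal (wound-healing) segments were collected at 3 and 5 days post amputation (dpa) as pooled batches of pieces. There were 4 distal, 4 medial and 3 proximal samples at 3 dpa, and 3 of each at 5 dpa. The arm regeneration series has 1 pooled sample for each of 8 conditions, taken at 48 and 72 h post amputation (hpa), at stages 3, 4 and 5, from the distal and proximal parts of arms at the 50% differentiation stage, and from a control. According to the methods the control was dissected from mature, uncut arm tissue, while its label calls the tissue a regenerating explant.

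Growing tissue needs nucleotides, processed RNA, ATP and newly made membrane and secreted proteins, and each of the 4 genes belongs to a different part of this supply. *Pur9* encodes the bifunctional enzyme that carries out the last steps of de novo purine synthesis, and its protein has the paired domains of that enzyme (MGS and AICARFT/IMPCHas). *Lsm7* encodes a small Sm-like protein that, in yeast and human, sits in ring complexes acting in splicing and in mRNA decay. *Atp5h* encodes subunit d of the mitochondrial ATP synthase, in the stalk that holds the catalytic head in place. *Spcs3* encodes a subunit of the signal peptidase complex, which removes signal peptides from proteins entering the endoplasmic reticulum. These roles come from the matched proteins of other species.

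All 4 genes lie on chromosome 1 of the assembly used by the study. *Pur9* spans 11765814 to 11793887 on the plus strand and *Lsm7* 12131764 to 12142540 on the minus strand, so 337876 bases and 10 annotated genes separate them. *Spcs3* spans 37449166 to 37468677 on the minus strand, and *Atp5h* 60375214 to 60388538 on the plus strand.

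Expression is given as TPM, an abundance per transcript length, which the authors rescaled between samples. Totals over all genes ran from 1024512 to 1880536 in 19 of the 20 explant samples and reached 2976429 in proximal replicate 4 at 5 dpa. Genes listed at 0 numbered between 1990 and 6099 in 19 samples and 7439 in medial replicate 2 at 5 dpa. Values at 5 dpa that change most without these 2 samples are also given without them. Correlations between replicates over all genes tested were between 0.9287 and 0.9845. Sequencing depth is not recorded in the tables, and its effect on precision is unknown. The marker genes on chromosome 1 were few: the summed level of 2 neuronal markers (*Elav4* and *Sc5a7*) was between 39.6 and 61.9 in every explant sample, the muscle marker *Karg-1* was between 0.524 and 2.72, and none of the 7 markers, including 4 of ciliated cells, was at 0 in any sample.

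*Pur9* was the gene of the 4 that set the distal segments apart most clearly. At 3 dpa its level was 19.8, 16.9, 18.5 and 17.3 in the 4 distal samples. It was 7.48, 6.41, 7.01 and 5.23 in the medial samples and 8.85, 8.94 and 10.3 in the proximal samples. Every distal sample lay above every proximal sample, and every proximal sample above every medial one. At 5 dpa it was 18.9, 20.4 and 17.9 in distal samples, 6.53, 5.40 and 4.63 in medial samples, and 11.3, 11.6 and 7.06 in proximal samples. As deposited, the order of the segments was the same and again without overlap, although proximal replicate 5 came close to the highest medial sample. With all samples rescaled to equal totals, proximal replicate 4 (3.89) fell within the medial values (3.40 to 6.01). In bulk tissue such a difference may come from the number of cells that express a gene or from the RNA each of them holds, and these cannot be told apart here.

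*Lsm7* had its highest levels in distal segments too. At 3 dpa it was 83.9, 93.6, 81.4 and 83.3 in distal samples, 48.1, 67.5, 50.6 and 39.0 in medial samples, and 69.8, 78.4 and 61.2 in proximal samples. The distal samples were above all others, and the proximal range overlapped the medial range through medial replicate 2. At 5 dpa it was 163, 169 and 129.7 in distal samples, 44.2, 108 and 47.4 in medial samples, and 110.1, 127 and 71.6 in proximal samples. The distal samples were again the highest, and medial replicate 2, the sample with the most genes at 0, stood far above the other two medial samples.

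*Atp5h* was the most abundant of the 4 genes in every sample. At 3 dpa it was 580.4, 565, 521 and 503 in distal samples, 428, 454, 448 and 415 in medial samples, and 551, 541 and 505 in proximal samples. Distal and proximal samples shared a range, and both lay above the medial samples. At 5 dpa it was 939, 794 and 694 in distal samples, 396, 584 and 515 in medial samples, and 812, 1061 and 493 in proximal samples. Only the distal samples remained clear of the medial ones, since proximal replicate 5 fell within the medial range.

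For *Spcs3*, distal and medial samples did not overlap at 3 dpa, and all 3 segments overlapped at 5 dpa. At 3 dpa it was 51.4, 65.7, 67.6 and 56.4 in distal samples, 44.5, 31.6, 46.0 and 33.5 in medial samples, and 45.3, 58.8 and 35.0 in proximal samples. The distal samples were above the medial samples, with the proximal samples spread over both. At 5 dpa it was 49.2, 50.8 and 46.7 in distal samples, 57.7, 36.1 and 50.3 in medial samples, and 55.0, 47.6 and 65.6 in proximal samples. The highest value was proximal.

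**Figure D1:**
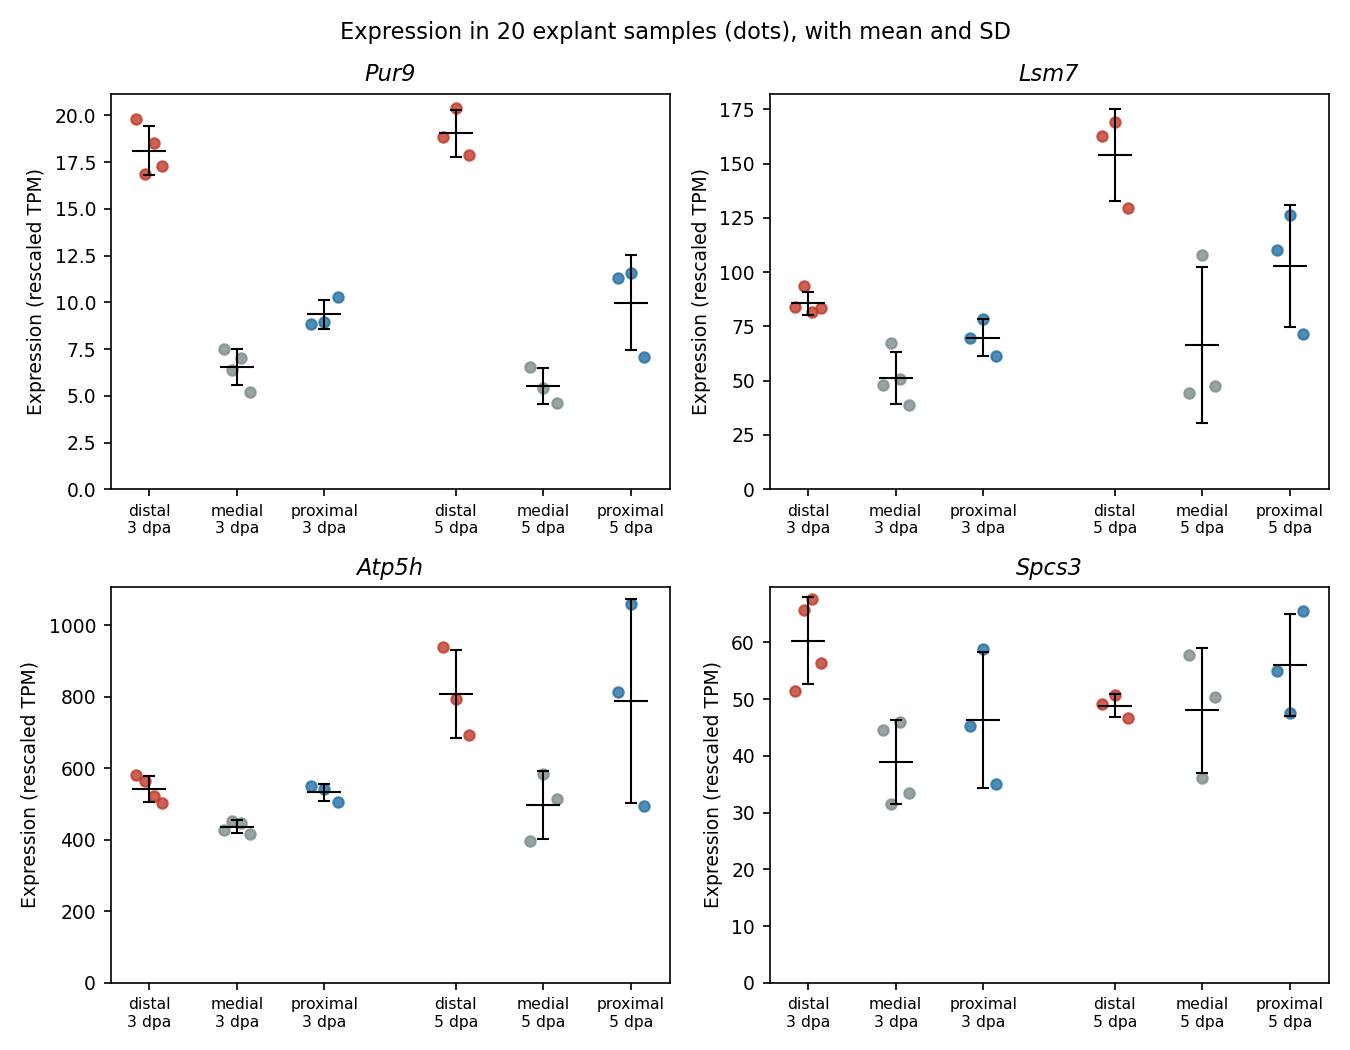
Expression (rescaled TPM, vertical axes starting at 0) of the 4 genes by explant segment and day (horizontal axis). Each dot is 1 of 20 samples, and the black bars are the group mean and SD. For *Pur9* the distal dots, between 16.9 and 20.4, stand above all others on both days, while for *Spcs3* the 3 segments overlap at 5 dpa.

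The spread between replicates differed among the genes and segments. At 5 dpa the coefficient of variation of *Spcs3* was 4.2% in distal and 22.9% in medial segments. For *Lsm7* it was 13.8% in distal, 27.4% in proximal and 54.0% in medial segments. The proximal samples at 5 dpa did not order alike across genes: replicate 5 was the lowest of the 3 for *Pur9*, *Lsm7* and *Atp5h* and the highest for *Spcs3*. Replicate 4, the sample with the outlying total, showed the reverse.

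Distal and medial segments were compared first, which sets the regenerating end against tissue away from both cuts. At 3 dpa, *Pur9* was higher in distal segments, with a mean of 18.1 ± 1.32 (SD, n = 4) against 6.53 ± 0.973 (SD, n = 4). The log2 fold change, on the log2(value + 1) scale used throughout, was 1.35 (SE 0.15, adjusted p = 1.63e-05, limma). A gene was called when the Benjamini–Hochberg adjusted p over the 21442 genes tested was under 0.05 and the log2 fold change was beyond 1 in size. *Pur9* was the only 1 of the 4 called at 3 dpa, where 1.7% of all genes tested were called higher. For *Spcs3* the estimate was 0.63 (SE 0.18, adjusted p = 0.0425), below the limit on size, and its adjusted p ran from 0.0411 to 0.138 as each sample was left out and was 0.295 at equal totals. *Lsm7* differed by 0.75 (SE 0.24, adjusted p = 0.0656) and *Atp5h* by 0.31 (SE 0.19, adjusted p = 0.386), and neither was called. The 4 distal samples lay above the 4 medial samples for all 4 genes, as they did for 10.1% of all genes tested.

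At 5 dpa, *Pur9* and *Lsm7* were both called higher in distal segments, and 3.42% of all genes tested were called higher there. *Pur9* had a mean of 19.0 ± 1.27 in distal and 5.52 ± 0.955 in medial segments (SD, n = 3 each), a log2 fold change of 1.63 (SE 0.17, adjusted p = 1.15e-05). *Lsm7* had a mean of 153.9 ± 21.2 in distal and 66.5 ± 35.9 in medial segments (SD, n = 3 each), a log2 fold change of 1.31 (SE 0.28, adjusted p = 0.00411). The call of *Lsm7* was lost when only the compared groups entered the fit (adjusted p = 0.0644), and its estimate was 1.72 (adjusted p = 0.000254) without medial replicate 2. *Atp5h* differed by 0.71 (SE 0.22, adjusted p = 0.038) and did not reach the limit on size, and its adjusted p ran from 0.0381 to 0.137 as each sample was left out. *Spcs3* differed by 0.05 (SE 0.21, adjusted p = 0.916), with a 95% interval from -0.40 to 0.49, and the sign turned without medial replicate 2 (-0.14, adjusted p = 0.755). For 3 of the 4 genes, all but *Spcs3*, the distal and medial samples did not overlap, as for 15.5% of all genes tested. The summed level of the 4 ciliated-cell markers (*Fxj1b*, *Tekt4*, *Rsph9* and *Drc8*) moved with the results at 5 dpa. It was between 27.3 and 36.3 in distal samples at 5 dpa and lower in every medial sample, down to 15.4. At 3 dpa the distal (17.9 to 19.9) and medial (13.8 to 19.4) sums overlapped. The other markers went the other way at 5 dpa, with a median of -0.121 for the neuronal markers and an estimate of -0.423 for the muscle marker. No marker was called, and their part in the differences was not tested.

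Proximal segments, which close a wound without regrowing, were then compared with medial segments. None of the 4 genes was called at 3 dpa, where 0.438% of all genes tested were called higher. The estimates were 0.47 for *Pur9* (adjusted p = 0.271), 0.46 for *Lsm7* (0.583), 0.29 for *Atp5h* (0.69) and 0.23 for *Spcs3* (0.757, limma adjusted p in each case). *Pur9* and *Atp5h* had no overlap between the proximal and medial samples, as had 9.06% of all genes tested. None was called at 5 dpa either, against 1.52% of all genes. *Pur9* came closest with 0.73 (SE 0.17, adjusted p = 0.0208), below the limit on size. At equal totals it was 0.32 (adjusted p = 0.454), and its adjusted p was 0.208 when both samples that stand apart were left out. *Lsm7* had an estimate of 0.70 (SE 0.28, adjusted p = 0.145). It was called without medial replicate 2 alone, at 1.11 (adjusted p = 0.019). Without both samples that stand apart it was 0.94, below the limit on size, and was not called. *Atp5h* had 0.61 (SE 0.22, adjusted p = 0.108), or 0.49 (adjusted p = 0.334) without both samples that stand apart, and *Spcs3* 0.23 (SE 0.21, adjusted p = 0.561). Only *Pur9* showed no overlap at 5 dpa as deposited, a feature shared by 9.15% of all genes, and at equal totals its proximal and medial samples overlapped. The summed ciliated-cell markers were between 17.6 and 35.2 in the proximal samples at 5 dpa, overlapping the medial range, and their part was not tested.

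The direct comparison of distal with proximal segments sets the regenerating end against the wound-healing end. At 3 dpa, *Pur9* differed by 0.88 (SE 0.16, adjusted p = 0.0156), and at 5 dpa by 0.89 (SE 0.17, adjusted p = 0.00812). The adjusted p at 5 dpa was 0.229 with only the compared groups in the fit. Both estimates were just below the limit on size, so no gene of the 4 was called, while 0.149% and 0.466% of all genes tested were called higher at 3 and 5 dpa. At equal sample totals the *Pur9* difference was 1.02 and 1.09 (adjusted p = 0.0421 and 0.022), but the median of all genes moved with it, to 0.11 at 3 dpa and 0.161 at 5 dpa. At 5 dpa the difference also passed the limit without proximal replicate 4 (1.01, adjusted p = 0.0118). *Lsm7* differed by 0.30 (SE 0.26, adjusted p = 0.853) at 3 dpa and 0.61 (SE 0.28, adjusted p = 0.326) at 5 dpa. Distal and proximal samples did not overlap for *Pur9* and *Lsm7* on either day, as for 8.5% of all genes tested at 3 dpa and 7.75% at 5 dpa. As deposited, the *Atp5h* estimate was near 0, with 0.03 (95% interval -0.40 to 0.46) at 3 dpa and 0.09 (-0.36 to 0.55) at 5 dpa. Its sign turned with single samples left out on both days, and it reached 0.19 and 0.36 under other settings. At equal totals the *Atp5h* means were 474 in distal and 416 in proximal samples at 3 dpa, and 536 and 419 at 5 dpa. Its percentile rank within a sample, which does not depend on scaling, was 99.23 to 99.25 in distal and 99.16 to 99.19 in proximal samples at 3 dpa. At 5 dpa it was 99.3 to 99.37 and 99.2 to 99.24. *Spcs3* differed by 0.39 (SE 0.20, adjusted p = 0.575) at 3 dpa and -0.18 (SE 0.21, adjusted p = 0.774) at 5 dpa.

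**Figure D2:**
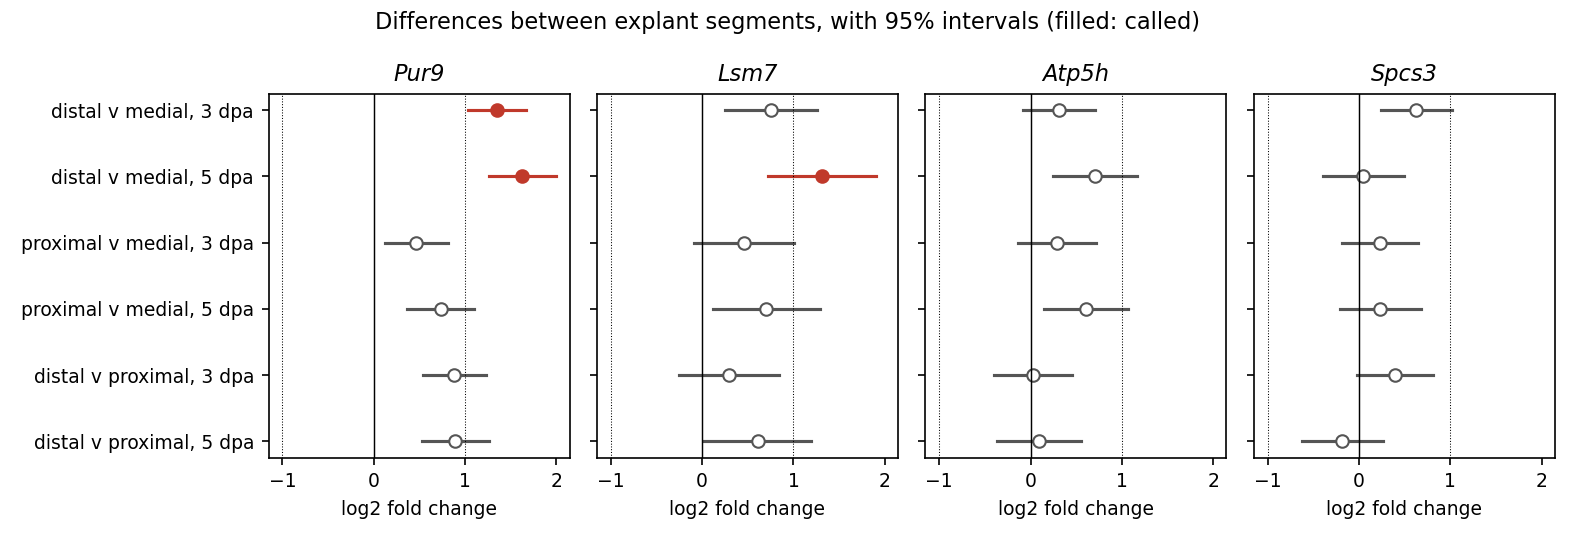
Log2 fold changes (horizontal axes, log2(value + 1) scale) between explant segments for each gene, by comparison and day (vertical axis). Points are limma estimates, lines are 95% intervals, dotted lines mark a change of 1 in either direction, and filled red points are called. *Pur9* was called in distal against medial segments on both days (1.35 and 1.63) and *Lsm7* at 5 dpa (1.31).

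None of the 4 genes was called between 3 and 5 dpa in any segment. In distal segments, where 0.835% of all genes tested were called in either direction, the estimate of 5 against 3 dpa was 0.83 for *Lsm7* (SE 0.26, adjusted p = 0.108). It was 0.57 for *Atp5h* (SE 0.20, adjusted p = 0.166), 0.07 for *Pur9* (SE 0.16, adjusted p = 0.877) and -0.29 for *Spcs3* (SE 0.20, adjusted p = 0.496). The distal samples of *Lsm7* and *Atp5h* at 5 dpa were all above those at 3 dpa, as for 11.0% of all genes tested, and the distal ranges of *Pur9* overlapped. The summed ciliated-cell markers moved with the distal samples, from between 17.9 and 19.9 at 3 dpa to between 27.3 and 36.3 at 5 dpa. The distal ranges of the neuronal sum (45.4 to 53.5, then 39.6 to 54.8) and of the muscle marker (0.585 to 1.17, then 0.635 to 1.32) overlapped between the days. The part of these markers was not tested. In medial segments 0.00466% of genes were called, and the estimates of the 4 genes lay between -0.21 (*Pur9*) and 0.29 (*Spcs3*). In proximal segments 0.0979% were called, and the estimates lay between 0.06 (*Pur9*) and 0.52 (*Lsm7*). The change of the distal difference between the days was also tested directly, with 0.0886% of genes called. *Spcs3* had the estimate farthest from 0, at -0.58 (SE 0.28, adjusted p = 0.666), and the others were 0.28 for *Pur9*, 0.56 for *Lsm7* and 0.39 for *Atp5h*. For the proximal difference 0.0% of genes were called and 5.02% had an unadjusted p under 0.05, and the 4 estimates lay between -0.0028 and 0.32. Rescaling to equal totals moved the median of all genes by over 0.1 in several comparisons, for example to -0.294 for distal and -0.327 for proximal segments at 5 against 3 dpa. On that scale the *Pur9* estimates turned to -0.30 and -0.37.

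Ratios between genes within a sample do not depend on how the samples were scaled. The ratio of *Pur9* to *Spcs3* at 5 dpa was 0.384, 0.401 and 0.382 in distal samples, 0.113, 0.150 and 0.0920 in medial samples, and 0.205, 0.243 and 0.108 in proximal samples. The distal samples were nearly equal to each other and above all others. At 3 dpa this ratio was 0.385, 0.257, 0.274 and 0.306 in distal samples and 0.168, 0.203, 0.152 and 0.156 in medial samples, also without overlap. The difference in mean log2 ratio was 0.84 at 3 dpa (exact two-sided permutation test, p = 0.0286, adjusted p = 0.41 over the 18 tests of this kind). It was 1.75 at 5 dpa (exact permutation p = 0.1, adjusted p = 0.41). These are the smallest p that 4 against 4 and 3 against 3 samples allow. With these sample sizes no ratio could have reached an adjusted p under 0.05, so the adjusted values cannot decide whether the ratios differ.

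The ratio of *Lsm7* to *Spcs3* at 5 dpa was 3.31, 3.33 and 2.78 in distal samples, 0.765, 2.99 and 0.941 in medial samples and 2.00, 2.66 and 1.09 in proximal samples. Medial replicate 2 reached the distal range, so these groups overlapped (difference 1.28, exact permutation p = 0.2, adjusted p = 0.45). Without that sample the difference was 1.88 and the groups did not overlap. At 3 dpa the same ratio differed between distal and medial segments by only 0.12 (exact permutation p = 0.629, adjusted p = 0.708). The ratio of *Atp5h* to *Spcs3* was between 7.71 and 11.3 in distal samples at 3 dpa and between 14.9 and 19.1 at 5 dpa. Its medial samples overlapped the distal ones on both days, with differences of -0.33 at 3 dpa and 0.66 at 5 dpa (exact permutation p = 0.143 and 0.3, adjusted p = 0.429 and 0.54). With the geometric mean of the 4 genes in place of *Spcs3*, the difference of *Atp5h* at 5 dpa turned to -0.26.

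**Figure D3:**
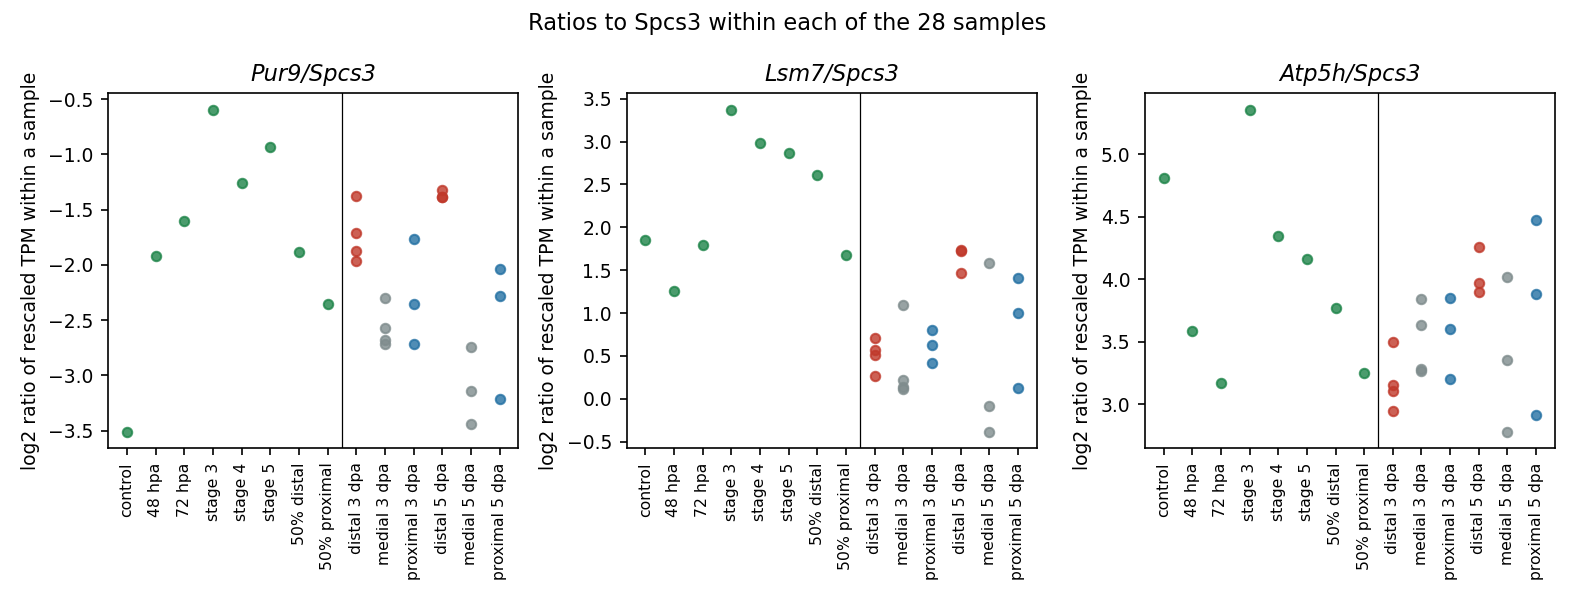
Log2 ratios of *Pur9*, *Lsm7* and *Atp5h* to *Spcs3* (vertical axes) in each of the 28 samples, with the 8 arm regeneration samples in green on the left and the explants on the right of the line (red distal, grey medial, blue proximal). The distal explants at 5 dpa lie above the others of that day for *Pur9*, and the lowest *Pur9* ratio of the arm series, at 0.0877 before the log, is the control.

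In the arm regeneration series, the control had a *Pur9* level of 1.38, followed by 7.48 and 10.1 at 48 and 72 hpa, 14.7 at stage 3, 17.6 at stage 4 and 19.1 at stage 5, then 12.3 in the distal and 6.74 in the proximal part of 50% arms. The values climb from the control to stage 5. As deposited, those at stages 4 and 5 fall in the range of the distal explants, although the 2 tables were normalized separately. At equal totals stage 5 (22.1) lay above every distal explant (17.2 at most). As deposited, *Lsm7* at stages 3 to 5 (229.8 to 332) lay above every distal explant (169 at most). *Spcs3* at these stages (42.1 at most) lay below them all, and *Atp5h* within their range. According to the methods, stages 3 to 5 are dissected regenerative tissue, while distal explants are sections of severed arms. The ratio of *Pur9* to the control was also set against the median gene of the same pair of samples. Genes with a level of at least 1 in both were used. The *Pur9* ratio was 5.59 at 48 hpa and 12.5 at stage 5. These ratios rest on 1 control sample, where the *Pur9* level of 1.38 was just above that limit. *Pur9* was also picked on these 8 samples, so the ratios are a description only. *Pur9* ranked at the 68.4th percentile of all genes in the control and the 94.66th at stage 5. In the explants it ranked between the 70.75th and 78.97th percentile in medial samples and between the 88.94th and 90.25th in distal samples, against that table's own genes.

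*Lsm7* had a level of 56.6 in the control, 67.6 and 106 at 48 and 72 hpa, 229.8 at stage 3, 332 at stage 4 and 267 at stage 5, then 276 in the distal and 110.1 in the proximal part of 50% arms. It stayed near the control at 48 hpa and was highest at stage 4, and the distal part of 50% arms was near stage 5. Against the median gene, its ratio to the control was 1.23 at 48 hpa and 4.93 at stage 4. *Atp5h* had a level of 439 in the control, 340.0 and 276 at 48 and 72 hpa, 909 at stage 3, 858 at stage 4 and 653 at stage 5, then 618 in the distal and 329 in the proximal part of 50% arms. It was below the control in both early samples and above it from stage 3 to 5. Against the median gene, this was 0.797 of the control at 48 hpa, 0.67 at 72 hpa and 1.82-fold at stage 3.

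*Spcs3* had a level of 15.7 in the control, 28.2 and 30.6 at 48 and 72 hpa, 22.2 at stage 3, 42.1 at stage 4 and 36.5 at stage 5, then 45.3 in the distal and 34.5 in the proximal part of 50% arms. In the deposited values, and unlike the other genes, its level at stage 3 was below that at 72 hpa, and its highest sample was a 50% stage. Between 72 hpa and stage 3 the ratios to *Spcs3* moved from 0.329 to 0.662 for *Pur9*, from 3.47 to 10.4 for *Lsm7* and from 9.02 to 41.0 for *Atp5h*, whatever the scaling. Without replicates, no difference between stages can be set against an error.

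These profiles depend on the scaling, because the column totals run from 551379 in the proximal part of 50% arms to 1866500 at stage 3. At equal totals of 1000000, *Pur9* was 16.4 at 72 hpa and 7.87 at stage 3, so it no longer climbs steadily, although the control stays lowest (0.792) and stage 5 highest (22.1). On that scale *Atp5h* had 253 in the control and 453 and 451 at 48 and 72 hpa, so its early position relative to the control turned around. The highest sample of both *Lsm7* (308) and *Atp5h* (752) became stage 5, and that of *Spcs3* (62.6) the proximal part of 50% arms. Scaling by the median of ratios kept the highest and the lowest sample of each gene as deposited.

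**Figure D4:**
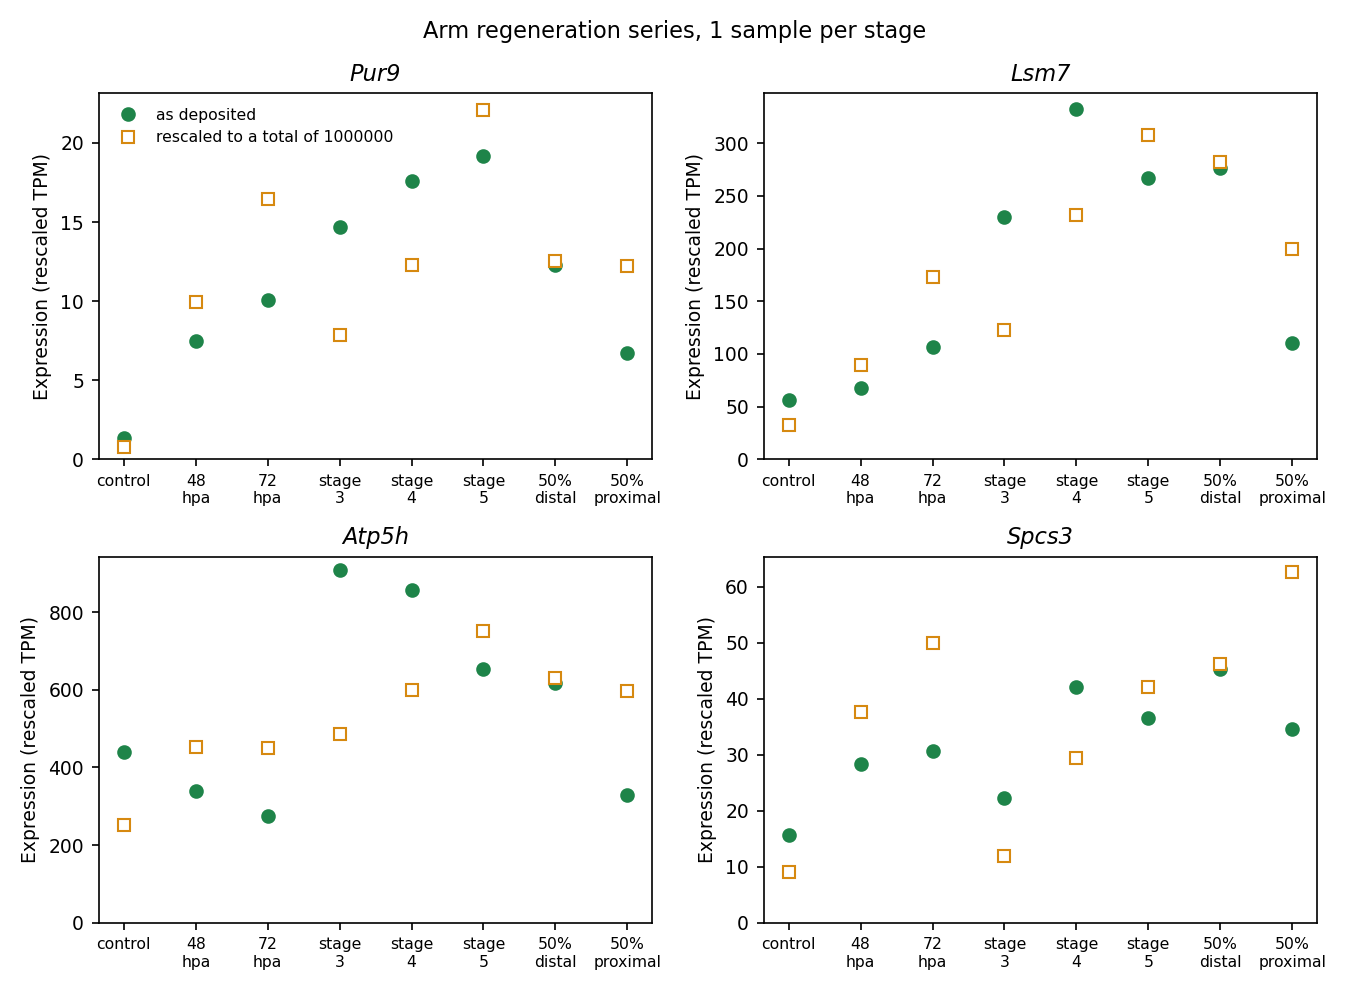
Expression (rescaled TPM, vertical axes starting at 0) of the 4 genes in the 8 samples of the arm regeneration series, 1 sample per stage (horizontal axis). Filled circles are the deposited values and open squares the same values at a total of 1000000. *Pur9* was lowest in the control on both scales, whereas *Atp5h* at 48 and 72 hpa was below the control as deposited (340.0 and 276 against 439) and above it at equal totals (453 and 451 against 253).

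Other genes of the same processes on chromosome 1 were examined in distal against medial segments. Over all genes tested, 1.7% were called higher and 0.284% lower at 3 dpa, and 3.42% higher and 2.05% lower at 5 dpa. In lists as short as these, finding none called lower is near those shares. Of 5 other genes of nucleotide metabolism, none was called at 3 dpa and 2 were called higher at 5 dpa, with medians of 0.106 and 0.457 beside 0.00519 and 0.00789 over all genes tested. *Mtap-1*, a phosphorylase of adenine salvage, had means of 15.9 in distal and 6.57 in medial segments at 5 dpa (log2 fold change 1.17, SE 0.20, adjusted p = 0.000824). *Dctp1*, which breaks down dCTP, had 8.81 and 3.58 (1.13, SE 0.25, adjusted p = 0.006). *Mtap-2*, the most abundant gene of the list, differed by 0.09 at 3 dpa (SE 0.17, adjusted p = 0.834). Of 13 other genes of RNA processing, *Exos3*, a subunit of the RNA exosome, was called higher on both days (1.19 and 1.09, adjusted p = 0.0117 and 0.0295), and the medians of the list were 0.201 and 0.248. No gene of the list was called lower.

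Among 12 tested genes of mitochondrial energy and maintenance, 4 were called higher on each day and none lower, and the medians were 0.561 and 0.81. *Clpp*, a protease of the mitochondrial matrix, had means of 69.9 in distal and 22.0 in medial segments at 5 dpa (1.65, SE 0.22, adjusted p = 9.6e-05). *Phb2*, a prohibitin of the inner membrane, had 122.9 and 45.6 (1.40, SE 0.16, adjusted p = 1.9e-05). *Grpe1*, a partner of the mitochondrial Hsp70 chaperone, had 46.5 and 20.9 at 3 dpa (1.12, SE 0.18, adjusted p = 0.00044). The others called were *Glrx5*, of iron-sulfur cluster assembly, at 5 dpa and *Rt18a*, of the mitochondrial ribosome, at 3 dpa. The respiratory chain subunits *Nduba* and *Ndus8*, like *Atp5h*, were not called. At 5 dpa *Ndus8* differed by 0.81 (SE 0.19, adjusted p = 0.00845), below the limit on size as *Atp5h* was, and *Nduba* by 0.29 (SE 0.22, adjusted p = 0.408). A further gene of the list, *Oma1*, was too low to be tested.

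Of 12 other genes of the secretory pathway, none was called on either day, with medians of 0.195 and 0.122. *Aster*, the most abundant of them and a membrane protein chaperone of the endoplasmic reticulum, differed by 0.57 at 3 dpa (SE 0.22, adjusted p = 0.129) and 0.12 at 5 dpa (SE 0.25, adjusted p = 0.804). Of 15 genes of the ribosome and translation, 3 were called higher at 3 dpa and 2 at 5 dpa, with medians of 0.653 and 0.802. *Wdr36* and *Diexf*, which act in assembly of the small ribosomal subunit, were called on both days. *Wdr36* had means of 6.22 in distal and 2.46 in medial segments at 3 dpa (1.06, SE 0.14, adjusted p = 8.04e-05), and *Diexf* had 7.89 and 3.16 (1.10, SE 0.22, adjusted p = 0.00388). No gene of these 2 lists was called lower.

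**Figure D5:**
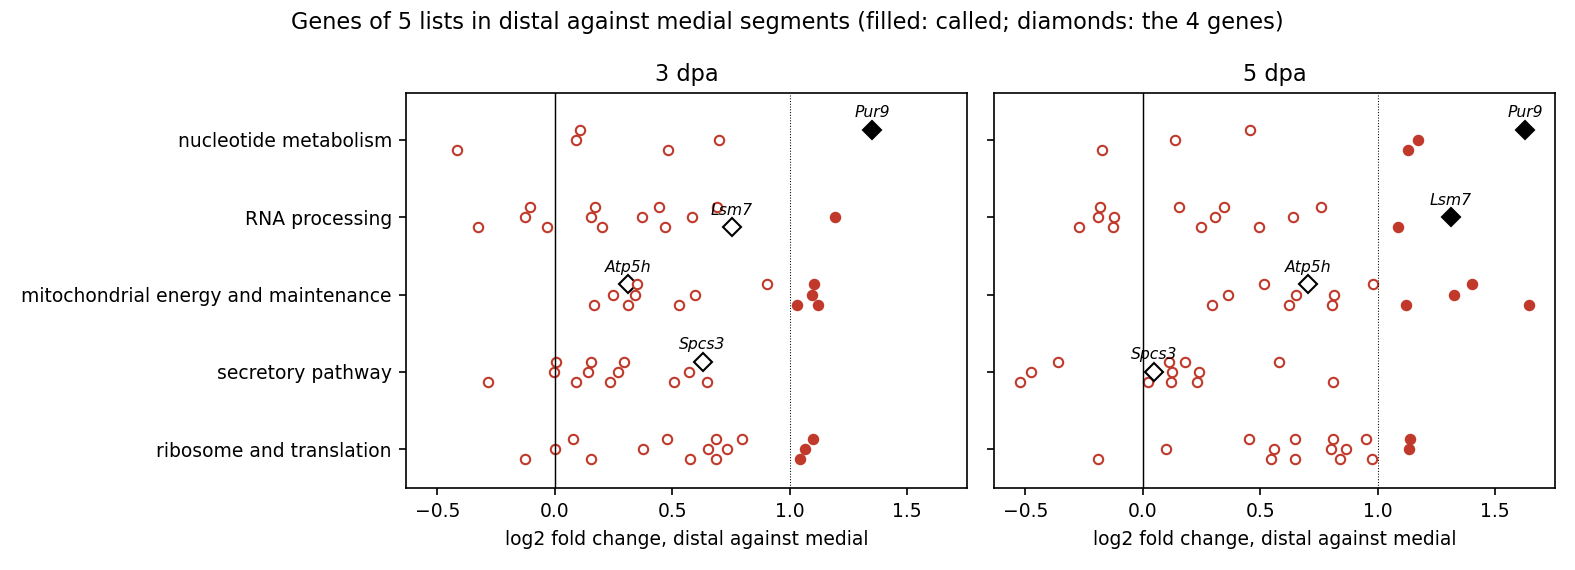
Log2 fold change of distal against medial segments (horizontal axes, log2(value + 1) scale) at 3 dpa (left) and 5 dpa (right) for each tested gene of 5 lists (vertical axis). Black diamonds are the 4 genes of the report, red circles the other genes, and filled symbols are called. The secretory pathway has no filled symbol on either day, and mitochondrial energy and maintenance has 4 on each.

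The profiles over the 20 explant samples were also matched with those of 153 other named genes of chromosome 1 with a mean of at least 10. These correlations describe samples that share segments, days and scaling. *Pur9* was most like *Phb2* (Pearson r = 0.946), *Sylc*, the cytoplasmic leucyl-tRNA synthetase (0.918), and the initiation factor gene *Eif3a* (0.902). *Lsm7* was most like *Clpp* (0.898), *Ace-3* (0.88) and *Atp5h* (0.879). *Atp5h* was most like the ribosomal protein genes *Rl37* (0.94) and *Rl21* (0.928) and the peroxiredoxin gene *Prdx1* (0.926). Once each group's mean was removed, the values for *Atp5h* were 0.938, 0.948 and 0.899, so as scaled its likeness to these genes was also present between replicates. In the proximal samples at 5 dpa, *Atp5h* ordered as the sample totals did. At equal totals replicate 4 was the lowest there (357, against 452 and 448 in replicates 1 and 5). The part of the sample totals in this likeness was not tested. For *Pur9* and *Phb2* the value fell from 0.946 to 0.523. *Spcs3* had no match above 0.739 (*Pt100*, a cytochrome c oxidase assembly factor), followed by *Pno1* (0.652), of small ribosomal subunit assembly, and *Sywc* (0.638), the cytoplasmic tryptophanyl-tRNA synthetase.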

How the data were processed

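RNA-seq of 20 explant samples in 6 groups and 8 arm regeneration samples was used. The values deposited by the authors are a normalized expression signal: kallisto TPM rescaled between samples with TMM, as the methods state for the arm series and the table's label says for the explants. They are not counts. Groups came from the labels. Samples of a group are batches of pieces, and whether they came from separate animals is not stated for each, so p-values measure the spread between these samples.

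All 20 explant samples entered 1 limma fit (version 3.58.1, R 4.3.3, trended variance) of log2(value + 1). Genes had to reach 1 in 3 or more samples, which left 21442. Within-sample ratios were compared by exact permutation tests (scipy 1.17.1), with 18 tests adjusted together. Figures and other steps used Python 3.11.15, pandas 2.3.3, numpy 2.4.6 and matplotlib 3.10.9. The limma step was tested on simulated data.

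The members, lists and tests were chosen with earlier results of these data known. Besides the 4 members, the text names from each list the 2 genes with the largest called change in distal against medial segments at 5 and at 3 dpa (where none was called, the most abundant gene), and the 3 genes most like each member. Genes named outside this rule are list or marker genes. Names, clusters and coordinates came from the study's table of chromosome 1. Alternatives were a pseudocount of 0.1, no filter or values of at least 5, only the groups compared, a replicate block, equal totals, median-of-ratios scaling, no trend and each replicate left out. Leaving out medial replicate 2 and proximal replicate 4 at 5 dpa together was added after seeing the data. No sequence is shown.

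According to the methods, each explant was divided into its proximal, medial and distal sections, so samples of different segments may share explants. Neither the methods nor the labels say whether samples with the same replicate number were cut from the same explants. Of 17 such pairs, 13 correlated over 0.1 in their deviations from group means (-0.0407 to 0.405, median 0.18, against a median of -0.0656 for other pairs). At 3 dpa every pair with a proximal sample was over 0.1, so those samples may be paired. For the other comparisons some pairs were lower or fewer than 3 were available. The main fit and the ratio tests used no pairing in any comparison, so their SE and p-values leave it out. The replicate block was run only as an alternative.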

Additional observations from a re-analysis of the deposited data

How the results depend on the processing

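The calls of *Pur9* in distal against medial segments held under all alternatives run, with each replicate left out giving 1.26 to 1.41 at 3 dpa and 1.53 to 1.74 at 5 dpa. With only the groups compared, *Lsm7* at 5 dpa was 1.31 and no longer called. At equal totals *Pur9* became called in distal against proximal segments (1.02 at 3 dpa, 1.09 at 5 dpa), where the median of all genes became 0.11 and 0.161. Also at equal totals, signs turned for *Spcs3* at 5 dpa in distal against medial (-0.13), proximal against medial (-0.20) and distal against proximal (0.069) segments, and the medians of all genes became -0.114, -0.258 and 0.161. The same scaling turned 5 against 3 dpa of *Pur9* (distal -0.30, proximal -0.37) and *Spcs3* (proximal -0.19), and the proximal change between days of *Pur9* (-0.034), *Lsm7* (-0.075) and *Atp5h* (-0.0014). That change of *Spcs3* turned with the replicate block (0.027) and the median of ratios (0.024). Without both 5 dpa samples that stand apart, values were -0.14 for *Spcs3* (distal against medial), 1.01 for *Pur9* (distal against proximal, called), -0.13 for *Lsm7* (medial, 5 against 3 dpa) and -0.054 for *Pur9* (proximal, 5 against 3 dpa). With the geometric mean in place of *Spcs3*, ratio differences turned for *Lsm7* in distal against medial at 3 dpa (-0.036) and for *Atp5h* in proximal against medial at 3 dpa (-0.093), distal against medial at 5 dpa (-0.26) and distal against proximal at 5 dpa (-0.28). In the arm series, 48 and 72 hpa against the control at equal totals gave 0.84 for *Atp5h*, which was negative as deposited. The cause of these changes was not tested.

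With each replicate left out, the lowest and highest estimates where a sign or call changed were -0.012 to 0.061 (*Atp5h*, distal against proximal, 3 dpa) and -0.21 to 0.34 (5 dpa), -0.14 to 0.19 (*Spcs3*, distal against medial, 5 dpa), 0.48 to 1.11 (*Lsm7*, proximal against medial, 5 dpa) and 0.69 to 1.01 (*Pur9*, distal against proximal, 5 dpa). They were -0.13 to 0.50 (*Lsm7*, medial) and -0.054 to 0.27 (*Pur9*, proximal) for 5 against 3 dpa, -0.19 to 0.18 for the proximal change of *Spcs3*, and -0.10 to 0.22 (3 dpa, proximal against medial) and -0.14 to 0.64 (5 dpa, distal against proximal) for the ratio of *Atp5h* to *Spcs3*. 

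Counts of genes called higher that moved by over 1.5 times were, at equal totals, 51 in place of 94 (proximal against medial, 3 dpa), 358 in place of 733 (distal against medial, 5 dpa) and 57 in place of 325 (proximal against medial, 5 dpa). The last was 14 with only the groups compared and 102 without the samples that stand apart, and 100 for distal against proximal at 5 dpa became 2 with only the groups compared. Leaving out a replicate gave 57 to 97, 8 to 51, 141 to 890 and 50 to 176 for proximal against medial and distal against proximal at 3 dpa and then at 5 dpa. Counts between days, 179, 1 and 21 genes in distal, medial and proximal segments, ranged from 100 to 175, 0 to 180 and 1 to 448.

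With the replicate block no call of the 4 genes changed, the estimates for *Pur9* and *Lsm7* in distal against medial segments at 5 dpa were again 1.63 and 1.31, and 325 genes became 151 for proximal against medial segments at 5 dpa.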
